A study of Bos taurus with 4 samples.

Results

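Chemokines, interleukins and their receptors were followed in bovine intramuscular preadipocytes before and after 6 days of adipogenic culture, with and without retinoic acid. The members are the array probes whose gene name in the array's annotation begins with CCL, CXCL, CX3CL, XCL, CCR, CXCR, CX3CR or IL followed by a number. The rule took 226 of 43653 probes, for 127 of 25151 genes by current symbol. By role these were 33 chemokine ligands, 17 chemokine receptors, 39 interleukins, 34 interleukin receptor chains and 4 antagonists or binding proteins. A probe is described here if some group had it well above background on each of its 3 arrays, and is otherwise counted as dim. There were 103 described and 123 dim probes, for 62 described and 65 dim genes, and 47 genes were well above background on all 12 arrays.

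The cells, BIP, are known as a clonal preadipocyte line from intramuscular fat of cattle. RNA was taken from confluent cells when adipogenic culture began (day 0) and on day 6. All 3 day 6 groups had medium with 50 ng/mL insulin, 0.25 µM of the glucocorticoid dexamethasone, octanoate at 5 mM, acetic acid at 10 mM and 10% serum, renewed at intervals of 2 days. The medium held 1 µM all-trans retinoic acid (ATRA), 1 µM 9-cis retinoic acid (9cRA) or neither (day 6 control). These retinoids are stereoisomers, alike but for the geometry of a double bond. ATRA binds the retinoic acid receptors, while 9cRA is known to bind both these and retinoid X receptors. Without cells kept 6 days in another medium, the effects of time and of the medium cannot be told apart. Dexamethasone was present in every day 6 group.

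Each group was measured on 3 arrays with 1 colour. Whether these were separate cultures is not stated in the labels, so the p-values reflect spread among arrays alone and that spread may be technical. The share of spots well above background ran from 64.8% to 74.0% per array. Day 6 control array 1 had the lowest share, 103 spots marked as non-uniform where the other arrays had 0 to 2, and a higher detection floor (-5.05 against -6.15 to -5.58). The arrays lay on 3 slides, with the day 0 arrays and day 6 control array 1 on slide 1, day 6 control arrays 2 and 3 with ATRA arrays 1 and 2 on slide 2, and ATRA array 3 with the 9cRA arrays on slide 3. With slide as a block in the fit, or within slide 1, day 6 control is compared with day 0 through control array 1 alone. Signals are given as log2 above or below the 75th percentile of their array. Differences are in log2 units with the standard error, and adjusted p-values are those of limma, over the 17621 genes tested. Where a further probe of a gene is given, its adjusted p-value is over all described probes of the array instead. A gene was called at an adjusted p under 0.05.

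Chemokines are small secreted proteins that draw leukocytes along a gradient by binding G protein-coupled receptors on the leukocyte. Their names follow the spacing of the leading cysteines, and many lie in gene clusters that arose by duplication. Interleukins act through receptors made of several chains, often a private chain and a chain shared between cytokines, such as gp130 (IL6ST) or the common gamma chain (IL2RG). In fat, preadipocytes and other stromal cells are known as a source of CCL2, IL6 and CXCL12, while most chemokine receptors are known from leukocytes.

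The sequences of 10 probes, for 10 genes that the results below turn on, are given 5′ to 3′ in the orientation of the probe, as the array files hold them, with their place on the UMD3.1 bovine genome. Capitals mark TGGGTN, where N is any base. On the strand printed, these letters were in 5 of 66 chemokine ligand probes (7.58%) and in 2045 of all 43653 probes (4.68%), and a match is a description only. For CCL26, IL15 and IL36A the probe shown is the source of the values given below. For the other 7 genes a brighter probe of the gene gave the values, and the CXCL8 probe shown was dim.
CCL2 (chromosome 19, 16233379 to 16233438, minus strand): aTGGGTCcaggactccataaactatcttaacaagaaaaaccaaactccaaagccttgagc
CCL5 (chromosome 19, 14830701 to 14830760, plus strand): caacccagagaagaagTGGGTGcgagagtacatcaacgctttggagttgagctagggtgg
CCL26 (chromosome 25, 34551595 to 34551654, minus strand): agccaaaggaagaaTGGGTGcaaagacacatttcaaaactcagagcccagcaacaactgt
CXCL8 (chromosome 6, 90561998 to 90562057, plus strand): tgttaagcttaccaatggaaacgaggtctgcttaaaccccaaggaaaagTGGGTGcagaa
CXCL12 (chromosome 28, 45417266 to 45417325, plus strand): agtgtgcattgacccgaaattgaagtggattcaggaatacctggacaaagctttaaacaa
IL6 (chromosome 4, 31582182 to 31582241, plus strand): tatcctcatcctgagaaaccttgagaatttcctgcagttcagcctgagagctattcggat
IL15 (chromosome 17, 16348015 to 16351513, minus strand, aligned over a gap): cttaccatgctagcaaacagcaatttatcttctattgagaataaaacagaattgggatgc
IL36A (chromosome 11, 46572802 to 46572861, plus strand): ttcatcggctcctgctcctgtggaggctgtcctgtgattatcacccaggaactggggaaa
IL1RAP (chromosome 1, 77229087 to 77229146, minus strand): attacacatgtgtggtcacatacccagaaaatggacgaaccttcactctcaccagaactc
IL4R (chromosome 25, 25171673 to 25178943, plus strand, aligned over a gap): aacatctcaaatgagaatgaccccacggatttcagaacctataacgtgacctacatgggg

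Detection differed by role. Described genes made up 19 of 33 chemokine ligands, 16 of 39 interleukins and 21 of 34 interleukin receptor chains. They made up 2 of 4 antagonists or binding proteins, but 4 of 17 chemokine receptors. Over the whole array, 17621 of 25151 genes had their brightest probe well above background on each array of some group. Among the members, 62 of 127 did, and every role had a lower share than the whole array. The 13 dim chemokine receptors included CCR2, CCR3, CCR7, CX3CR1, CXCR1, CXCR2, CXCR3 and CXCR6. The receptors for CCL2 (CCR2), CCL26 (CCR3), CCL19 (CCR7) and CX3CL1 (CX3CR1) were thus dim in all 4 groups. CCR2 and CCR3 were well above background on no array. A CX3CR1 probe was so on 2 of 3 day 0 arrays and a CCR7 probe on 2 of 3 ATRA arrays. Other CCR7 probes were so on 1 array of a group at most. CCL2 and CCL26 were measured in all 4 groups, and CCL19 and CX3CL1 in the 3 day 6 groups but not at day 0. The dim interleukins included IL1A, IL2, IL4, IL5, IL12A, IL12B, IL17A, IL21 and IL22, and the dim receptor chains IL7R, IL2RB and IL18RAP. Of the 123 dim probes, 84 were well above background on no array, where the arrays set only an upper bound on the signal, and 39 were so on at least 1 array.

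Adipogenic culture without retinoid came first, as the day 6 control set against day 0. Of the 62 described genes, 26 were higher and 15 lower at day 6, where 62.3% of all genes tested were called, 31% higher and 31.3% lower. With a change of at least 2-fold, 13 were higher (8.47% of all genes) and 9 lower (5.82%). The median difference was 0.18 and its median size 0.60, against 0.004 and 0.37 over all genes. Since a gene bright in a single group enters only through that group, these counts describe the members. Among the 47 genes well above background in both groups, 23 were called higher and 8 lower, where under the same filter 32.8% of 15408 genes were called higher and 33% lower.

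Among the chemokine ligands, 8 of 19 rose, 5 fell and 6 were not called. CX3CL1, the membrane-bound fractalkine (chromosome 18, 25475943 to 25476002), was at -8.36, -8.34 and -8.28 on the day 0 arrays, not well above background on any. It stood at 0.88, 0.66 and 1.11 on the day 6 control arrays, at least 127-fold higher (adjusted p = 1.9e-12), with no overlap between the groups. CCL19, a ligand of CCR7 (chromosome 8, 77394857 to 77394916), went from -6.34, -6.20 and -7.16, again not well above background, to -1.95, -1.78 and -2.29, at least 17.1-fold higher (adjusted p = 4.4e-08). CXCL14, a chemokine of epithelia and stroma (chromosome 7, 48661119 to 48661178), went from -8.18, -8.14 and -8.06 to -4.68, -4.99 and -4.90, at least 2.37-fold higher (adjusted p = 7.9e-06). All 3 ligands were therefore dim before culture and measured on every day 6 control array. With normexp they were still called, at smaller fitted differences of 5.10, 2.12 and 0.71.

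CCL2, which attracts monocytes, was measurable at day 0, with 3.46, 3.35 and 3.43, and reached 5.62, 5.50 and 5.26, a rise of 2.05 ± 0.09 (adjusted p = 1.8e-08). CXCL3, a ligand of the neutrophil receptor CXCR2 (chromosome 6, 90812955 to 90813014), went from -1.16, -1.06 and -1.13 to 1.11, 0.99 and 1.25, a rise of 2.23 ± 0.10 (adjusted p = 1.7e-08). The day 0 and day 6 arrays did not overlap for either. CCL5, which attracts T cells and monocytes, rose less, by 0.62 ± 0.11, from 0.47, 0.49 and 0.66 to 1.19, 1.29 and 1.01 (adjusted p = 0.00050). CXCL12, the ligand of CXCR4 and ACKR3 (chromosome 28, 45418569 to 45418628), rose by 0.52 ± 0.11, from 1.61, 1.70 and 1.28 to 2.01, 1.95 and 2.19 (adjusted p = 0.0016), with 0.47 (adjusted p = 0.12) within slide 1. CCL25 rose by 0.62 ± 0.12.

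The largest fall was that of CCL26, an eosinophil-attracting ligand of CCR3. Its day 0 arrays read 3.31, 3.37 and 3.48 and its day 6 control arrays -1.51, -1.54 and -2.07, a fall of 5.10 on the log2 scale (SE 0.14, adjusted p = 8.0e-10). The fall rests on the brightest CCL26 probe. The other, with no genome position given, was well above background on no array (-8.27 at day 0 and -7.92 in the control). XCL1, a chemokine of T and NK cells (chromosome 16, 36979900 to 36979959), fell from -4.22, -4.70 and -4.26 to -7.29, -5.95 and -5.98 (difference -2.01 ± 0.36, adjusted p = 0.00069), and day 6 control array 1 was the lowest (-2.90 within slide 1, and -0.59 over all arrays with normexp). CCL16 (-1.13), CXCL16 (-0.54) and CXCL8 (-0.48 ± 0.13) also fell. CCL3, CCL4, CCL8, CXCL5, CXCL10 and CXCL17 were not called, with differences from -0.24 to 0.11. Slide changed some of these differences. With slide as a block CCL8, a monocyte chemokine, differed by -0.94, CXCL17 by -0.82, CXCL10 by -0.34 and CXCL8 by -0.24. These values rest on day 6 control array 1, the only control array on the slide of day 0. There CCL8 read -6.62, below that array's detection floor of -5.05, against -5.35 and -5.53 on arrays 2 and 3.

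Of the 4 described chemokine receptors, ACKR3, which removes CXCL12 without G protein signalling, rose by 1.15 ± 0.06, from a mean of 2.32 ± 0.08 (SD, n = 3) to 3.48 ± 0.09 (adjusted p = 8.3e-08). The described probe of CXCR4, the signalling receptor for CXCL12, was well above background at day 0 only (-5.55 ± 0.26, n = 3), and was at least 1.17-fold lower at day 6 (adjusted p = 9.5e-05). CCR1, a receptor for CCL3 and CCL5 (chromosome 22, 53857941 to 53858000), likewise read -5.15, -5.11 and -5.49 at day 0 and -7.37, -8.46 and -8.44 at day 6, at least 1.43-fold lower (adjusted p = 9.7e-05). CXCR5 rose by 0.56 ± 0.08 (adjusted p = 0.00018). CXCR4 and CCR1 entered the test through day 0 alone, the group in which they were bright, so their falls are descriptions, and the other CXCR4 probe was dim. With normexp CCR1 differed by -0.68.

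**Figure D1:**
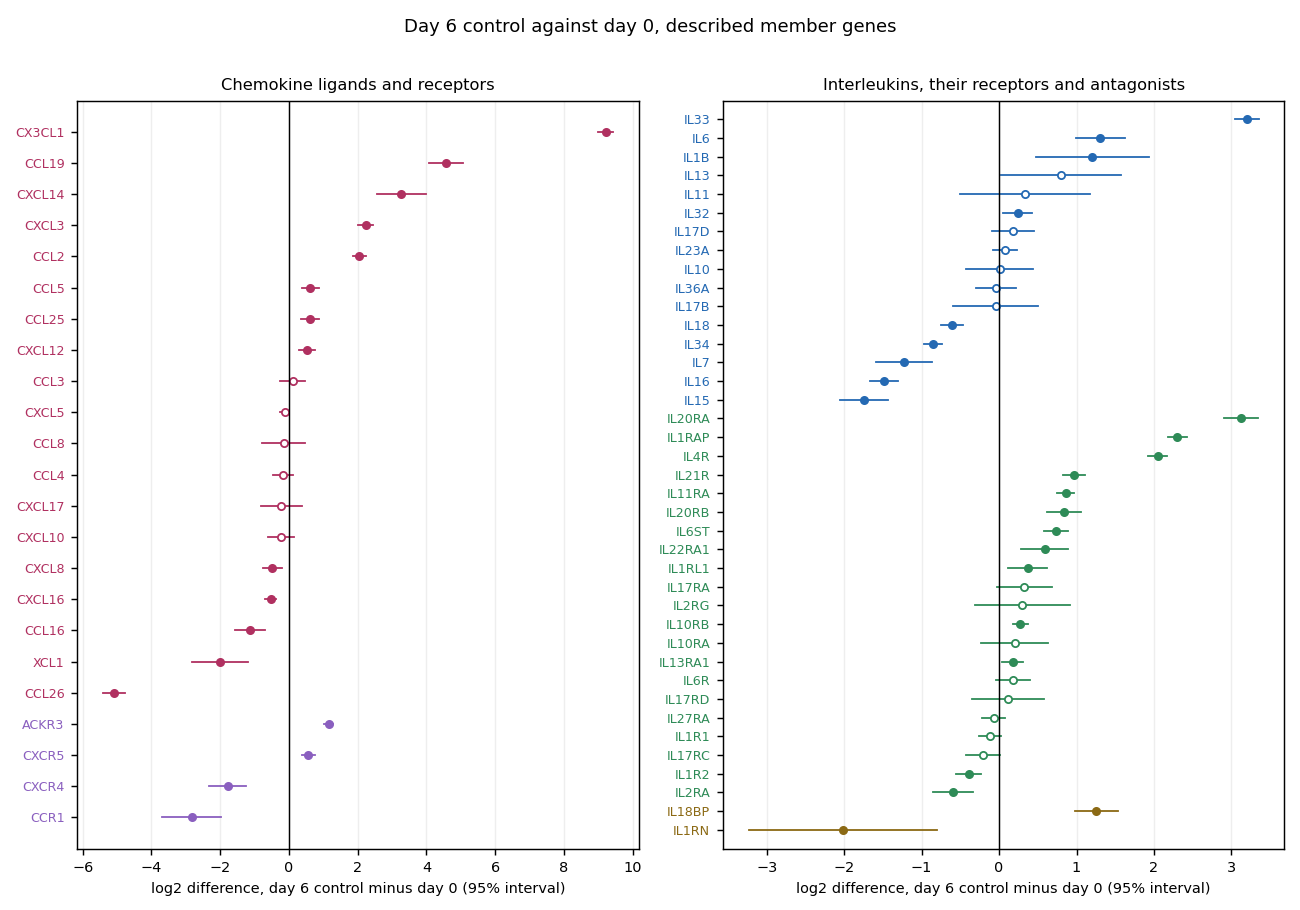
Differences between day 6 control and day 0 for the 62 described genes, on the log2 scale with 95% intervals from limma (3 arrays a group). Filled points were called and open points were not, and colours give the role. The left panel runs from CX3CL1 (9.21) down to CCL26 (-5.10), and 11 of the 13 interleukin receptor chains that were called lie above 0.

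Among the interleukins, 4 of 16 rose, 5 fell and 7 were not called. IL33, an alarmin of the IL-1 family (chromosome 8, 38724804 to 38724863), rose from -3.57, -3.47 and -3.57 to -0.39, -0.33 and -0.30, by 3.20 ± 0.07 (adjusted p = 1.5e-10). IL6, a gp130 cytokine (chromosome 4, 31582501 to 31582560), rose from -3.57, -3.41 and -3.30 to -2.04, -2.01 and -2.31, by 1.31 ± 0.14 (adjusted p = 1.6e-05). The arrays of day 0 and day 6 stood apart for both. IL15, which acts through chains of the IL-2 receptor, fell from -3.66, -3.78 and -3.57 to -5.54, -5.16 and -5.54, by 1.74 on the log2 scale (SE 0.14, adjusted p = 1.7e-06). With normexp the differences were 2.56 for IL33 and -0.75 for IL15. IL16, a cytokine that binds CD4, differed by -1.49 ± 0.08, IL7, a growth factor of lymphocyte precursors, by -1.23 ± 0.16, IL34, a ligand of the receptor CSF1R, by -0.85 ± 0.05, and IL18 by -0.61 ± 0.06.

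IL1B was called higher at day 6 (1.21 ± 0.33, adjusted p = 0.0082), but its arrays were uneven. The day 0 arrays read -2.30, -2.60 and -2.50, and day 6 control array 1 read -2.22, while arrays 2 and 3 read -0.83 and -0.73. Within slide 1, which holds array 1 and day 0, the difference was 0.25 (adjusted p = 0.21). IL32, a cytokine of lymphocytes and stroma, was called higher by 0.24 ± 0.08, with 0.02 (adjusted p = 0.78) within slide 1. IL32 also lost the call when day 0 array 1 or 3 or control array 2 or 3 was left out (0.18 to 0.24). IL36A, an IL-1 family agonist, read -3.31, -3.27 and -3.31 at day 0 and -3.68, -3.16 and -3.17 at day 6, and was not called (-0.04 ± 0.12, adjusted p = 0.80). With slide as a block IL36A differed by -0.38, which rests on control array 1, the lowest of the 3.

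Of the 21 interleukin receptor chains, 11 rose, 2 fell and 8 were not called. IL20RA, a chain of an IL-20 receptor (chromosome 9, 75979364 to 75979423), rose from -5.84, -6.13 and -5.72 to -2.72, -2.75 and -2.83, by 3.13 ± 0.10 (adjusted p = 1.7e-09). IL1RAP, the accessory chain that the IL-1, IL-33 and IL-36 receptors share (chromosome 1, 77223127 to 77223186), rose from -4.08, -4.18 and -4.06 to -1.80, -1.79 and -1.83, by 2.30 ± 0.05 (adjusted p = 2.4e-10). IL4R, the chain that binds IL-4 (chromosome 25, 25188942 to 25189001), rose from 1.13, 1.09 and 0.95 to 3.1, 3.04 and 3.18, by 2.05 ± 0.06 (adjusted p = 7.5e-10). None of the 3 had overlapping arrays. With normexp the rise was 1.52 for IL20RA and 1.62 for IL1RAP.

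The other rises were smaller. IL21R rose by 0.97, IL11RA by 0.86, IL20RB by 0.84, the shared chain IL6ST by 0.73, IL22RA1 by 0.59 (0.44 with adjusted p = 0.074 within slide 1) and IL10RB by 0.27. IL1RL1, the IL-33 receptor, was called at 0.37 ± 0.11 and IL13RA1 at 0.18 ± 0.06, with 0.15 (adjusted p = 0.32) and 0.10 (adjusted p = 0.28) within slide 1. Each also lost the call when day 0 array 3 or control array 2 or 3 was left out, and IL13RA1 without day 0 array 1. IL2RA (-0.60) and the decoy receptor IL1R2 (-0.39) fell. IL6R, the private chain for IL-6, was not called (0.18 ± 0.10, adjusted p = 0.15), nor were IL1R1, IL2RG, IL10RA, IL17RA (0.49 with adjusted p = 0.030 within slide 1), IL17RC, IL17RD and IL27RA.

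The 2 described antagonists differed in direction. IL18BP, which binds IL-18, went from a mean of -2.43 ± 0.07 (SD, n = 3) to -1.17 ± 0.13, a rise of 1.26 ± 0.13 (adjusted p = 9.9e-06). IL1RN, the IL-1 receptor antagonist (chromosome 11, 46706093 to 46706152), read -3.62, -3.63 and -3.23 at day 0 and -3.86, -6.17 and -6.51 at day 6, where only array 1 was well above background. It was called lower (-2.02 ± 0.54, adjusted p = 0.0081), with -2.85 (adjusted p = 6.4e-07) without day 6 control array 1 and -0.36 (adjusted p = 0.21) within slide 1. Day 6 control array 1 was thus near day 0 for these probes of IL1B and IL1RN, and slide and array quality as part of these results were not tested. A second IL1RN probe read -5.35 ± 0.43 (SD, n = 3) at day 0, well above background on each array. It read -8.01 ± 0.65 in the control, where no array was well above background (fitted difference -2.66, adjusted p = 6.7e-05).

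**Figure D2:**
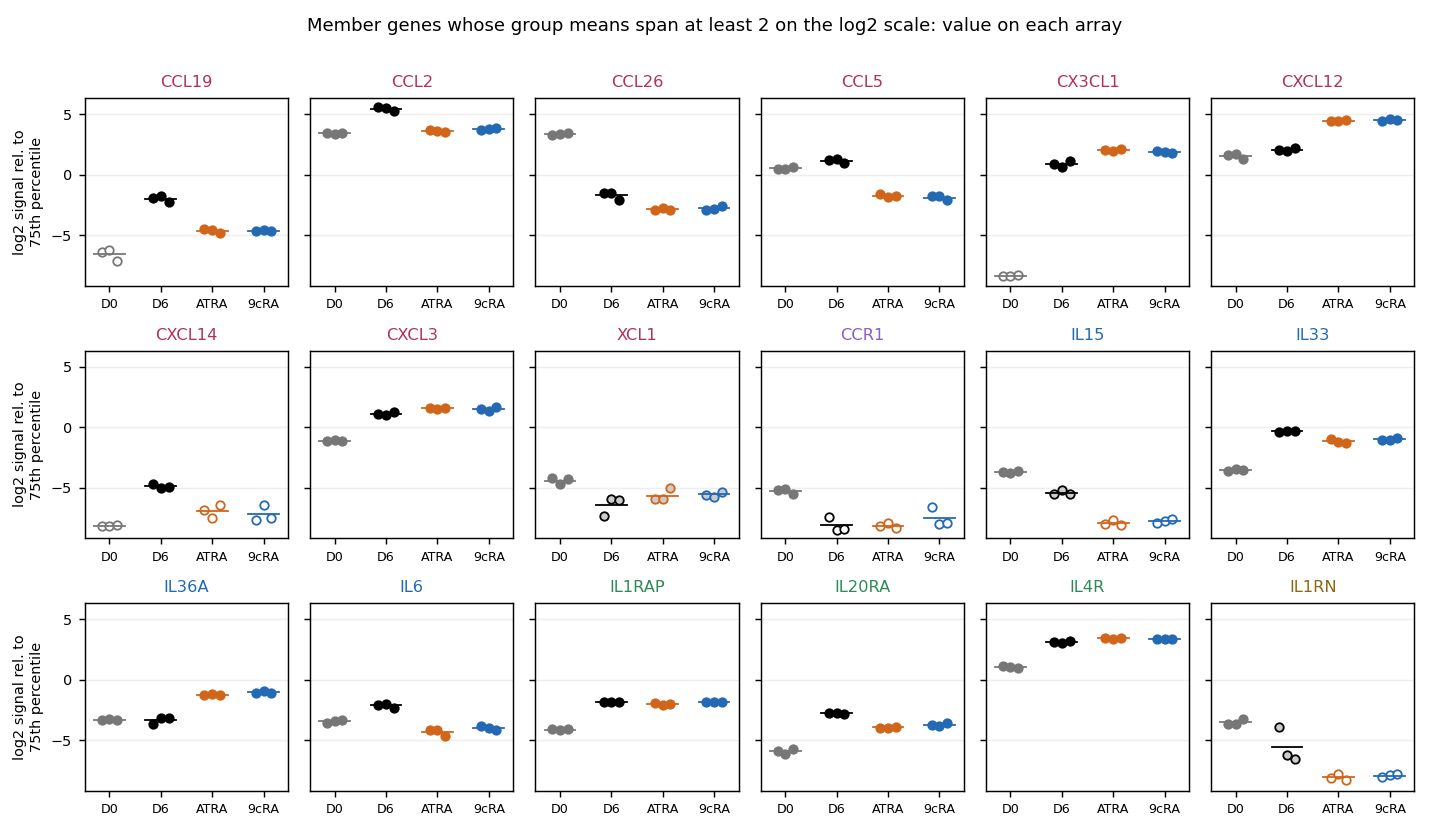
Signal on each of the 12 arrays for the 18 genes whose group means span at least 2 on the log2 scale, as log2 signal less the 75th percentile of the array. Points are arrays and bars group means, and filled points mark groups with all 3 arrays well above background, grey points 1 or 2 arrays and open points none. D6 is the day 6 control. CX3CL1, CCL19 and CXCL14 are open at D0, and IL15 and IL1RN are open with both retinoids.

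The second question is what each retinoid added to the 6 days of culture, and both were set against the same day 6 control arrays. With ATRA, 19 of the 62 genes were higher and 14 lower (46.1% of all genes were called, 23.8% higher and 22.4% lower). With 9cRA, 18 were higher and 13 lower (46.5% called, 24.8% higher and 21.8% lower). At 2-fold or more, ATRA gave 5 higher and 10 lower, against 4.23% and 3.61% of all genes, and 9cRA gave 4 higher and 9 lower, against 4.39% and 3.53%. The median size of the difference was 0.35 with ATRA and 0.45 with 9cRA, against 0.25 over all genes in each comparison. 9cRA and day 6 control share no slide, so slide as a block links them only through ATRA array 3. For CXCL10, CXCL17 and IL10 that array read highest of the ATRA arrays. With slide as a block, 10 genes were higher and 13 lower with 9cRA, where 10.3% of all genes were called higher and 12.8% lower.

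Several chemokines fell with both retinoids. CCL5 fell most, from the 1.19, 1.29 and 1.01 of the day 6 control to -1.62, -1.80 and -1.79 with ATRA and -1.77, -1.78 and -2.11 with 9cRA. The differences were -2.90 ± 0.11 (adjusted p = 1.3e-08) and -3.05 ± 0.11 (adjusted p = 1.0e-08), and both groups were also below every day 0 array. CCL2 read 3.71, 3.62 and 3.57 with ATRA and 3.72, 3.77 and 3.88 with 9cRA, against 5.26 to 5.62 in the control (-1.82 ± 0.09, adjusted p = 8.6e-08, and -1.67 ± 0.09, adjusted p = 1.8e-07). CCL19 read -4.50, -4.60 and -4.83 with ATRA and -4.64, -4.59 and -4.62 with 9cRA, differences of -2.64 ± 0.22 (adjusted p = 5.3e-06) and -2.61 ± 0.22 (adjusted p = 6.2e-06). These 3 ligands separated control and retinoid arrays without overlap. With normexp CCL19 differed by -1.58 with ATRA and -1.60 with 9cRA.

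CXCL14 returned below the detection limit. It read -6.83, -7.50 and -6.42 with ATRA and -7.66, -6.44 and -7.47 with 9cRA, at least 1.96-fold lower (adjusted p = 0.00042) and at least 1.76-fold lower (adjusted p = 0.00018) than the control. With normexp the fitted differences were smaller, -0.47 and -0.51, and still called. CCL26 read -2.90, -2.72 and -2.90 with ATRA (-1.13 ± 0.14, adjusted p = 0.00010) and -2.89, -2.79 and -2.57 with 9cRA (-1.04 ± 0.14, adjusted p = 0.00019). For 9cRA the difference of CCL26 was -0.85 (adjusted p = 0.051) with slide as a block. CCL16 was also called lower (-0.84 with ATRA and -0.85 with 9cRA), at levels not well above background on any retinoid array. With normexp background correction these were -0.06 (adjusted p = 0.49) and -0.12 (adjusted p = 0.20).

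CXCL12 and CX3CL1 moved the other way. CXCL12 read 4.46, 4.43 and 4.49 with ATRA and 4.41, 4.60 and 4.54 with 9cRA, against 1.95 to 2.19 in the control. It was higher by 2.41 ± 0.11 (adjusted p = 4.1e-08) and 2.47 ± 0.11 (adjusted p = 3.9e-08). CX3CL1 read 2.06, 1.99 and 2.13 with ATRA (1.18 ± 0.10, adjusted p = 4.8e-06) and 1.95, 1.91 and 1.80 with 9cRA (1.00 ± 0.10, adjusted p = 1.7e-05). All retinoid arrays exceeded all control arrays for these ligands.

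CXCL3 read 1.62, 1.53 and 1.58 with ATRA (0.46 ± 0.10, adjusted p = 0.0027) and 1.48, 1.31 and 1.70 with 9cRA (0.38 ± 0.10, adjusted p = 0.0084, and 0.38 with adjusted p = 0.22 with slide as a block). CXCL8, the main neutrophil chemokine of cattle and humans, was called higher by 0.46 ± 0.13 with ATRA (adjusted p = 0.015) and 0.36 ± 0.13 with 9cRA (adjusted p = 0.040). CXCL8 lost the call with 9cRA under quantile normalization (0.24, adjusted p = 0.11), with slide as a block (0.09, adjusted p = 0.65) and without control array 2 or 3 or 9cRA array 2 or 3 (0.28 to 0.34). With ATRA it lost the call without control array 3 (0.37, adjusted p = 0.052). With normexp CXCL8 was called with neither ATRA (0.23, adjusted p = 0.0503) nor 9cRA (0.12, adjusted p = 0.29). CXCL10 (0.50 ± 0.17) and CXCL17 (1.00 ± 0.27) were called higher with 9cRA alone, but with slide as a block their differences were -0.22 (adjusted p = 0.49) and -0.10 (adjusted p = 0.76), and neither was called between the retinoids. CXCL10 also lost the call when control array 1 or 3 or any 9cRA array was left out (0.44 to 0.52). CCL8 was not called (0.27 ± 0.28 and 0.44 ± 0.28), but with slide as a block its sign turned, to -0.29 with ATRA (adjusted p = 0.032) and -0.45 with 9cRA (adjusted p = 0.048). XCL1 read -5.95, -5.92 and -5.03 with ATRA and -5.57, -5.72 and -5.31 with 9cRA and was not called (adjusted p = 0.11 and 0.073).

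Among the chemokine receptors, ACKR3 rose by 0.39 ± 0.06 with ATRA (adjusted p = 0.00048) and 0.52 ± 0.06 with 9cRA (adjusted p = 7.3e-05). CXCR4, CXCR5 and CCR1 were not called with either. CCR1 read -8.17, -7.93 and -8.35 with ATRA and -6.54, -7.96 and -7.91 with 9cRA, not well above background on any of these arrays. CXCL12 and ACKR3 were thus higher with both retinoids, and the described CXCR4 probe was well above background on no day 6 array. The other CXCR4 probe was so on 1 day 6 control array and 1 9cRA array.

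**Figure D3:**
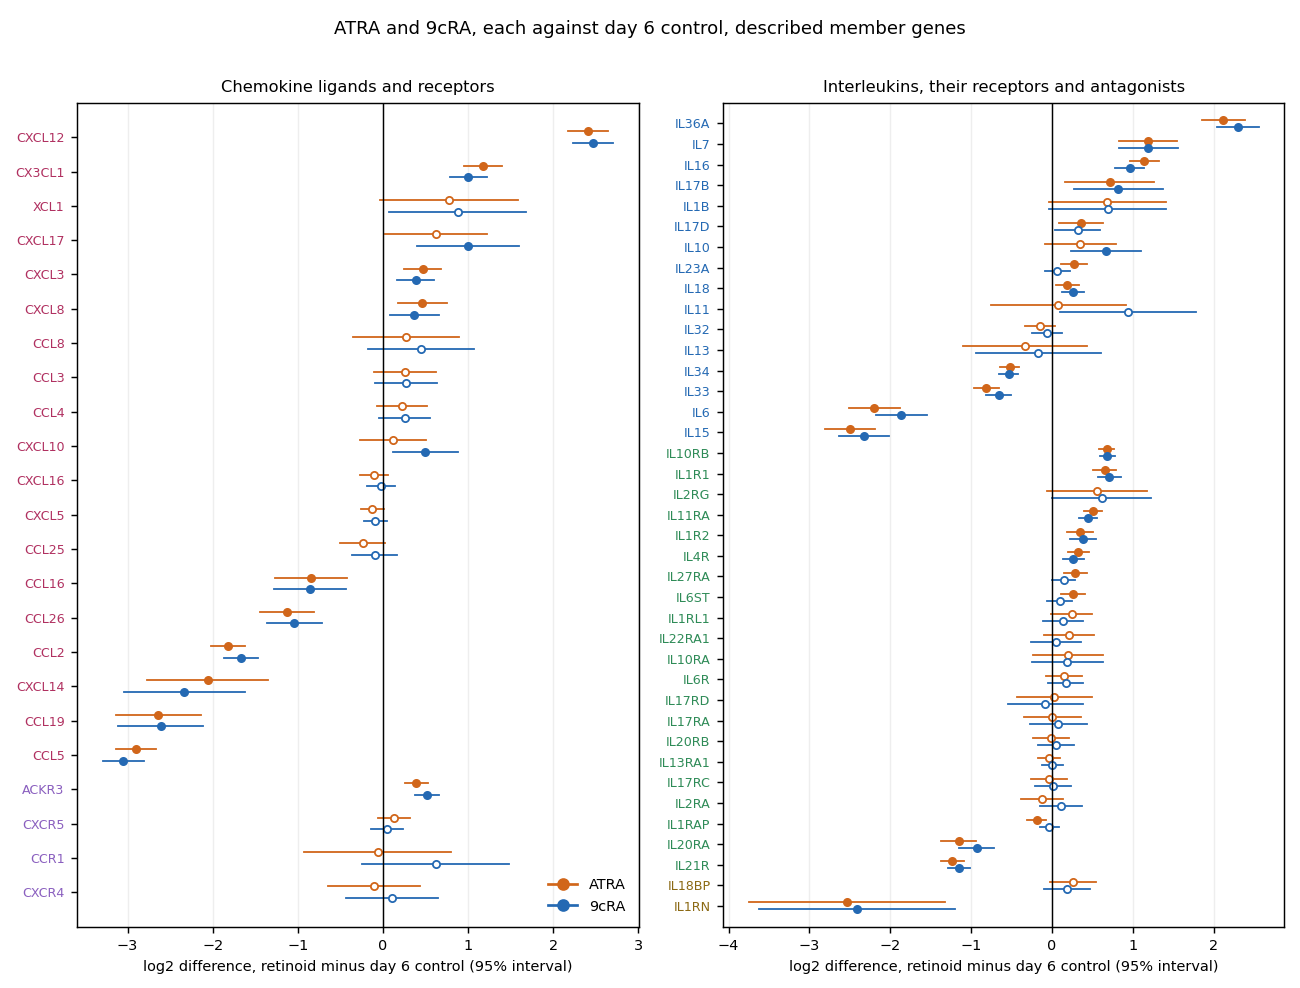
Differences between each retinoid and the day 6 control for the 62 described genes, on the log2 scale with 95% intervals from limma (3 arrays a group), ATRA in orange and 9cRA in blue. Filled points were called. CXCL12 (2.41 and 2.47) and IL36A (2.12 and 2.30) lie farthest to the right, and CCL5 (-2.90 and -3.05) farthest to the left. Both comparisons use the same 3 control arrays.

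Among the interleukins, 7 of 16 rose and 4 fell with ATRA, and 6 rose and 4 fell with 9cRA. IL36A, not called over culture, read -1.24, -1.18 and -1.22 with ATRA and -1.06, -0.96 and -1.09 with 9cRA, higher by 2.12 ± 0.12 (adjusted p = 2.0e-07) and 2.30 ± 0.12 (adjusted p = 1.2e-07). IL6 read -4.16, -4.16 and -4.62 with ATRA (-2.20 ± 0.14, adjusted p = 6.5e-07) and -3.84, -3.95 and -4.14 with 9cRA (-1.86 ± 0.14, adjusted p = 2.3e-06), below every control and every day 0 array. With normexp IL6 differed by -1.39 and -1.24. IL33 read -1.0, -1.19 and -1.26 with ATRA (-0.81 ± 0.07, adjusted p = 6.0e-06) and -1.05, -1.02 and -0.92 with 9cRA (-0.66 ± 0.07, adjusted p = 3.0e-05). It stayed above the day 0 arrays.

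IL15 was not well above background on any retinoid array, with -8.01, -7.65 and -8.08 for ATRA and -7.90, -7.72 and -7.59 for 9cRA. It was at least 1.33-fold lower with ATRA (adjusted p = 2.2e-07) and at least 1.2-fold lower with 9cRA (adjusted p = 4.0e-07), where 2 of the 3 control arrays measured it. With normexp IL15 differed by -0.36 and -0.49, and was still called. IL34 fell by 0.52 with ATRA and 0.54 with 9cRA. IL16 rose by 1.14 ± 0.08 and 0.96 ± 0.08, and IL7 by 1.18 ± 0.16 and 1.19 ± 0.16. IL18 was called higher by 0.19 and 0.26, and IL17B, dim in the control, was higher by a factor of at least 1.5 with ATRA and 1.62 with 9cRA. IL18 was as large with slide as a block but not called (0.21, adjusted p = 0.066, with ATRA and 0.28, adjusted p = 0.15, with 9cRA). With ATRA it was not called under median scaling (0.13, adjusted p = 0.19) or without control array 2 or 3 or ATRA array 2 or 3 (0.17 to 0.18) either. With slide as a block IL17B kept the call with ATRA (0.79, adjusted p = 0.0098) and lost it with 9cRA (0.53, adjusted p = 0.22). IL17B with ATRA lost it under quantile normalization (0.61, adjusted p = 0.055) and without control array 2 or 3 or ATRA array 3 (0.53 to 0.59), and with 9cRA without control array 2 or 3 or 9cRA array 3 (0.65 to 0.70).

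By the brightest probe, IL17D and IL23A were called with ATRA alone (0.36 ± 0.12 and 0.27 ± 0.07) and IL10 with 9cRA alone (0.67 ± 0.20). With slide as a block these were 0.28 (adjusted p = 0.13), 0.26 (adjusted p = 0.062) and -0.23 (adjusted p = 0.35). IL17D lost the call without control array 2 or ATRA array 2 or 3 (0.24 to 0.35), and IL10 without control array 1 or 9cRA array 2 (both 0.60). The difference between the retinoids was not called for any of the 3. IL1B was not called with either retinoid (0.69 ± 0.33 with each). IL11 and IL13, read close to the detection limit, were not called either.

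Of the 21 receptor chains, 7 rose and 3 fell with ATRA, and 5 rose and 2 fell with 9cRA. IL10RB, shared by the IL-10 and IL-22 receptors, rose by 0.68 ± 0.04 with each (adjusted p = 4.6e-07 and 4.5e-07). IL1R1, the signalling IL-1 receptor, rose by 0.65 and 0.71, IL11RA by 0.51 and 0.45, and the decoy IL1R2 by 0.35 and 0.38 (0.24 and 0.26, not called, under cyclic loess). IL4R read 3.45, 3.42 and 3.43 with ATRA (0.33 ± 0.06, adjusted p = 0.00094) and 3.34, 3.40 and 3.37 with 9cRA (0.26 ± 0.06, adjusted p = 0.0036, and 0.27 with adjusted p = 0.14 with slide as a block). IL27RA (0.29) and IL6ST (0.26) were called higher with ATRA, and within slide 2 the differences were 0.31 (adjusted p = 0.067) and 0.21 (adjusted p = 0.15), of similar size but not called.

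IL20RA read -3.94, -3.93 and -3.90 with ATRA (-1.16 ± 0.10, adjusted p = 4.9e-06) and -3.74, -3.79 and -3.57 with 9cRA (-0.93 ± 0.10, adjusted p = 2.5e-05), between day 0 and the control. IL21R fell by 1.23 and 1.15 on the log2 scale. IL1RAP read -1.90, -2.07 and -2.01 with ATRA (-0.19 ± 0.05, adjusted p = 0.015) and -1.83, -1.82 and -1.86 with 9cRA (-0.03 ± 0.05, adjusted p = 0.63), and the ATRA difference was -0.18 (adjusted p = 0.073) with slide as a block and -0.15 (adjusted p = 0.064) without ATRA array 2. IL1RN read -8.11, -7.80 and -8.24 with ATRA and -8.06, -7.90 and -7.81 with 9cRA, not well above background on any. It was at least 1.24-fold lower with ATRA (adjusted p = 0.0034) and at least 1.12-fold lower with 9cRA (adjusted p = 0.0047), bounds that rest on a control in which 1 of 3 arrays was well above background, and with normexp it was not called (adjusted p = 0.083 and 0.063). IL18BP was not called (0.26 and 0.19).

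The third comparison set the stereoisomers against each other at the same dose and day, 1 pair of compounds over 62 genes. No described member was called (21 of 17621 genes, 0.119%, were called by limma), and the smallest adjusted p of a member was 0.34. At an unadjusted p under 0.05 there were 7 of 62 members, against 10.5% of all genes. Differences ran from -0.86 ± 0.38 (IL11, 95% interval -1.70 to -0.02) to 0.27 ± 0.32 (CXCL14, -0.44 to 0.99). The 95% interval lay within 2-fold either way for 59 members and within 1.5-fold for 47. The exceptions to the first were IL11, CCR1 (-1.54 to 0.19) and IL1RN (-1.34 to 1.08), whose signals were near or below the detection limit.

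Among the genes with the largest retinoid differences, the interval of ATRA minus 9cRA was -0.09 to 0.39 for CCL5, -0.29 to 0.18 for CXCL12, -0.35 to 0.04 for CCL2, -0.44 to 0.08 for IL36A and -0.65 to -0.02 for IL6. The smallest adjusted p, 0.34, belonged to IL1RAP (-0.16 ± 0.05). A missed threshold does not show that the isomers act alike, and the intervals give the sizes these arrays leave possible.

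**Figure D4:**
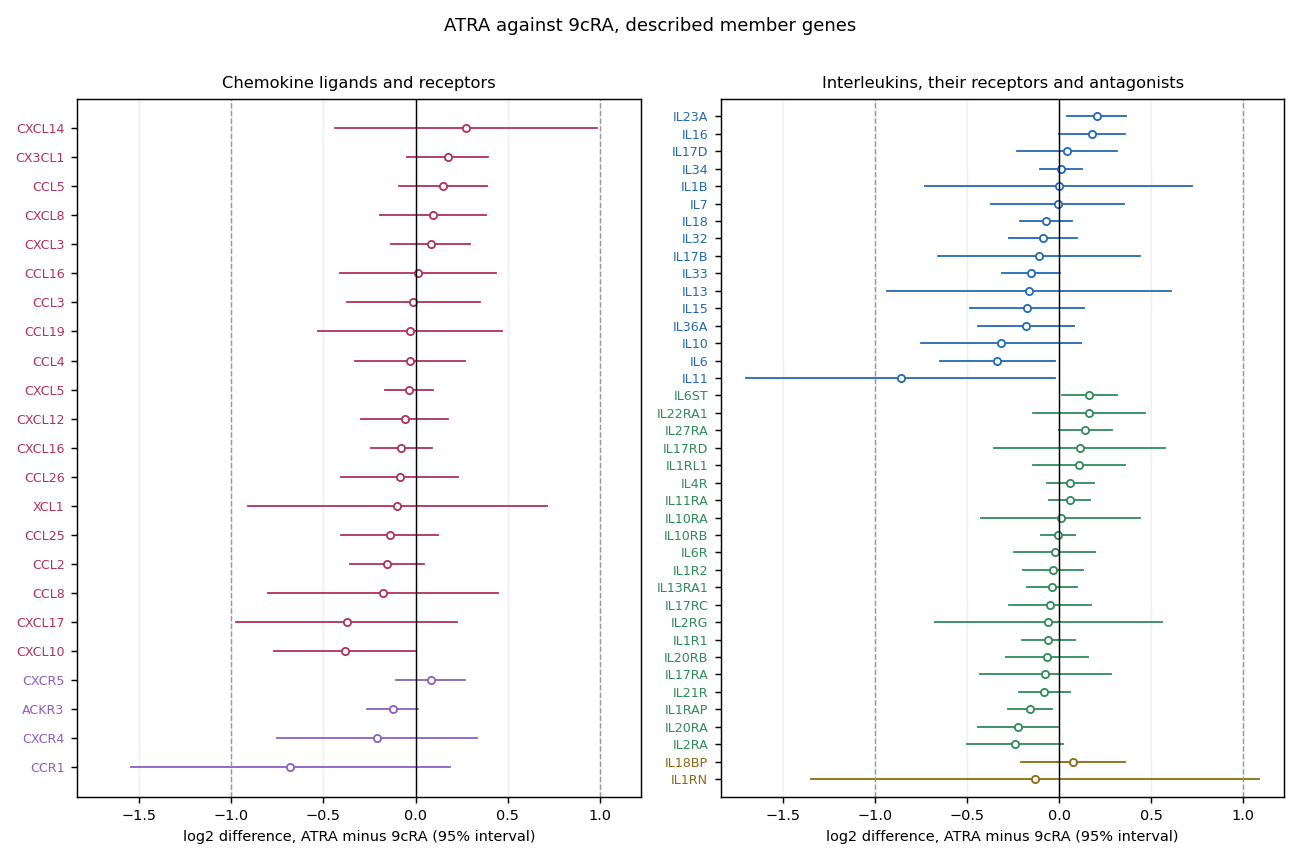
Differences between ATRA and 9cRA for the 62 described genes, on the log2 scale with 95% intervals from limma (3 arrays a group), with dashed lines at 2-fold in each direction. No gene was called, so all points are open. The widest intervals belong to genes near the detection limit, such as IL1RN and CCR1.

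Read across both steps, which share the day 6 control arrays, the described genes fell into groups by their calls. CCL2, CCL5, CCL19, CXCL14, IL6, IL33, IL20RA and IL21R (8 genes) were higher after culture and lower with both retinoids. ACKR3, CX3CL1, CXCL3, CXCL12, IL4R, IL10RB and IL11RA (7 genes) were higher in both steps. CCL16, CCL26, IL15, IL34 and IL1RN (5 genes) were lower in both, and CXCL8, IL7, IL16, IL18 and IL1R2 (5 genes) were lower after culture and higher with both retinoids. The 12 genes not called in any of these comparisons were CCL3, CCL4, CCL8, CXCL5, IL6R, IL10RA, IL11, IL13, IL17RA, IL17RC, IL17RD and IL2RG. These groups follow the fit without slide and the brightest probe of each gene. Several of these calls changed with other settings. With slide as a block CCL8 was called lower with both retinoids, and was lower over culture by control array 1 alone. In that setting CCL26, CXCL3, CXCL8, IL4R and IL18 lost the 9cRA call, and IL18 also the ATRA call. Over culture CXCL8 (-0.24) and IL1RN (-0.36) were not called with slide as a block, where the comparison rests on control array 1. CCL16, CXCL8 and IL1RN lost both retinoid calls with normexp, and IL1R2 lost both under cyclic loess. Other probes of CCL5, CXCL12, IL10RB, IL16, IL21R, IL34, IL1RN and IL17RC gave another call in at least 1 comparison.

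On chromosome 11, IL1B (46410307 to 46410366), IL36A and IL1RN lie in a stretch that holds genes of the IL-1 family. There IL36A was higher with both retinoids, IL1B was not called, and IL1RN was well above background on control array 1 and on no other day 6 array. CCL2 and CCL5, on chromosome 19, both rose over culture and fell with both retinoids, while CCL16 on the same chromosome fell in both steps. On chromosome 6, CXCL3 rose over culture and CXCL8 fell. On chromosome 25, IL4R rose in both steps, and the brightest probe of its neighbour IL21R rose over culture and fell with both retinoids.

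Of the 62 described genes, 47 had more than 1 probe, and 25 of these had at least 1 dim probe. The retinoid rise of CXCL12 was seen with its 4 probes (1.98 to 2.41 with ATRA), but over culture 3 of them rose (0.50 to 0.96) and the fourth, on chromosome 28 from 45417336 to 45417395, fell by 0.39 (adjusted p = 0.042). The 5 probes of IL4R rose by 1.46 to 2.37 over culture, and the 2 of IL6 by 1.23 and 1.31. The 3 of CCL5 fell by 2.66 to 2.99 with ATRA. For IL1RAP, 2 probes rose by 2.01 and 2.30 over culture, while the probe with the lowest coordinates (77198182 to 77198241) differed by -0.28 (adjusted p = 0.38).

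Other probe sets disagreed more. Of the 26 genes with more than 1 described probe, 18 had another probe that changed a call in at least 1 of the 3 comparisons with day 0 or control. A second IL21R probe, well above background on all 12 arrays, gave 0.03 over culture (adjusted p = 0.90), -0.24 with ATRA (adjusted p = 0.31) and 0.13 with 9cRA (adjusted p = 0.58). A second IL17RC probe, also measured on all 12 arrays, fell by 0.84 with ATRA (adjusted p = 0.00013) and 0.66 with 9cRA (adjusted p = 0.00075), where the brightest was not called. A second IL2RA probe rose by 0.60 with each retinoid (adjusted p = 0.0023 for each), also unlike the brightest. For IL23A another probe was called with ATRA (0.74, adjusted p = 0.00054) and also with 9cRA (0.39, adjusted p = 0.022). For IL27RA another probe was called with 9cRA (0.27, adjusted p = 0.036) and not with ATRA (0.23, adjusted p = 0.069). A second IL16 probe gave 0.49 and 0.43 with the retinoids and was not called, and one of CXCL16 gave 0.49 (adjusted p = 0.12) over culture against -0.54. The described CXCL8 probe differed by at most 0.48 in these comparisons, while its 2 other probes were dim at day 0 and day 6 and were well above background on 2 and 0 ATRA arrays and on 1 9cRA array each. Of the IL1B probes, a second gave -0.96 (adjusted p = 0.23) over culture against 1.21. IL13 was described through a probe on the strand opposite to its 2 dim probes. CCL19, CCL3 and XCL1 were likewise described through 1 probe and had probes on both strands, and the plus-strand probe of CCL19 was dim on every array while the described one lies on the minus strand. For IL1RN, a second probe (46705615 to 46705674) was dim on all day 6 arrays, so that its retinoid differences (0.26 and 0.27) lie between signals below the detection limit. A second IL1RL1 probe shared stretches of 20 bases with 9 probes of other genes, among them AAGGAAATGGCAACCCACTC, shown because 6 of those probes held it. Of the 226 member probes, only this one and 1 for IL32 shared such a stretch with another gene on the same strand.

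**Figure D5:**
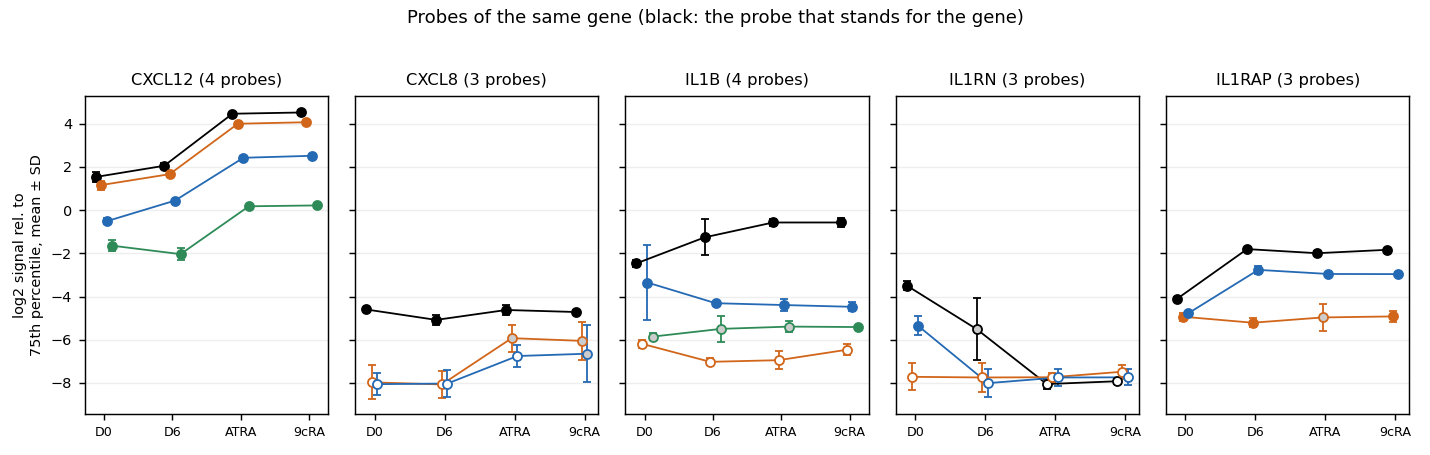
Group means (points) and SDs over 3 arrays (bars) for every probe of 5 genes, as log2 signal less the 75th percentile of the array, with the probe that stands for the gene in black. Filled points mark groups with all 3 arrays well above background, grey points 1 or 2 and open points none. The 4 CXCL12 probes rise together with both retinoids but not over culture, and the CXCL8, IL1B, IL1RN and IL1RAP probes differ in course.

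The pathway genes, which but for ACKR3 lie outside the members, were read from lists chosen by function. Their counts stand against 31% higher and 31.3% lower of all genes tested over culture, 23.8% and 22.4% with ATRA, and 24.8% and 21.8% with 9cRA. Of 20 tested NF-kappaB subunits and regulators, 6 were higher and 9 lower after culture, and with each retinoid 5 were higher and 4 lower. NFKBIA, the inhibitor that NF-kappaB itself induces, rose by 1.54 ± 0.08 over culture and fell by 0.77 with ATRA and 0.68 with 9cRA, and NFKBIZ, a cofactor for IL6 transcription, rose by 2.42 ± 0.07 and fell by 0.77 and 0.61. RELB, a subunit of the alternative pathway, fell by 2.12, and IKBKG, the scaffold of the IKK complex, by 1.14. NFKB1 differed by -0.28 ± 0.06 over culture (adjusted p = 0.0024) and was not called with either retinoid. BCL3 rose by 1.88 with ATRA and 1.85 with 9cRA. Medians of this list were -0.13, 0.06 and 0.02, against 0.004, 0.05 and 0.06 over all genes.

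Of 19 tested genes of IL-1 and Toll-like receptor signalling, 7 were higher and 7 lower after culture, 5 higher and 3 lower with ATRA, and 6 higher and 4 lower with 9cRA. IRAK2, a kinase of this pathway, rose by 2.36 ± 0.07 and fell by 1.32 with each retinoid. CD14, the coreceptor of TLR4, rose by 1.89 and again by 2.31 and 2.33. Of 21 JAK, STAT and SOCS genes, 7 were higher and 5 lower after culture, 8 higher and 5 lower with ATRA, and 8 higher and 3 lower with 9cRA. STAT4 rose by 3.12 ± 0.08 over culture and STAT3, the main relay of gp130, by 0.33, then by 0.60 and 0.58. SOCS3, the feedback inhibitor of gp130, was not called over culture (0.52 ± 0.21, adjusted p = 0.058) and rose by 1.57 and 1.68, and SOCS2 fell by 1.63 and 1.71.

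The gp130 cytokines and receptors outside the IL names had 5 tested genes, of which 2 were higher after culture and 4 with each retinoid, and none lower. OSMR, the oncostatin M receptor, rose by 1.87 ± 0.07 and then by 0.21 and 0.40, and LIFR rose by 1.30 over culture. LIF itself was not well above background on all arrays of any group. A list of other chemokine and chemokine receptor genes had 9 tested, among them the member ACKR3, described above. Of these, 3 were higher and 2 lower after culture, and 2 higher and 2 lower with each retinoid. ACKR3 is one of the higher genes in each of these counts. ACKR4, which scavenges CCL19 and CCL25, fell by 3.49 ± 0.13 over culture and was at least 2.75-fold lower with ATRA and 2.47-fold lower with 9cRA, where no array was well above background. MIF rose by 0.68 and fell by 0.65 and 0.60. Of 11 TNF, CSF and other cytokine genes, 3 were higher and 5 lower after culture, and 8 higher and 2 lower with each retinoid (median 0.86 and 0.82). CSF1, a growth factor of macrophages, rose by 2.28 and fell by 1.49 and 1.59, TNFRSF1B rose by 1.84 and 1.85 with the retinoids, and TNF was dim.

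Markers of the labelled cell type were present. All 14 preadipocyte and fibroblast genes were tested and 13 were well above background on all 12 arrays. Their summed signal (in units of the array's 75th percentile) was 868 to 892 at day 0, 949 to 1014 in the control, 773 to 849 with ATRA and 794 to 814 with 9cRA. LUM, a matrix proteoglycan, rose by 1.34 over culture and fell by 2.75 and 2.48 with the retinoids, and THY1 fell by 1.77 and 1.71. Markers of other cells were read beside the cytokines. For macrophages and monocytes, 5 of 14 genes were well above background on all 12 arrays, 6 never were (CD163, ITGAM, C1QA, C1QC, MRC1 and AIF1), and the summed signal was 6.33 to 6.75 at day 0, 5.25 to 6.96 in the control, 7.69 to 8.34 with ATRA and 7.41 to 7.58 with 9cRA. PTPRC, which encodes CD45, differed by -0.48 over culture and by 0.86 and 0.78 with the retinoids. For T and NK cells 4 of 12 genes were always measured and CD3E never, with sums of 12.2 to 12.6, 10.9 to 14.9, 15.6 to 21.1 and 18.8 to 20.3. Of 9 tested, 1 was higher after culture and 4 lower, among them CD3G (-3.19) and CD247 (-1.56). With ATRA 1 was higher (CD4, 0.47) and 1 lower. With 9cRA 2 were higher, CD4 (0.75) among them, and 1 lower (CD247, -0.23).

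For endothelial cells 4 of 9 genes were always measured and PECAM1 never, and the sums were 1.84 to 1.89 at day 0, 2.86 to 3.37 in the control, 4.44 to 4.60 with ATRA and 4.43 to 4.61 with 9cRA. Its genes did not all move with the sum. Of 6 tested, 3 were higher after culture, among them EGFL7 (1.79), and 2 lower, with CLEC14A at least 13.7-fold lower. For neutrophils 2 of 7 genes were always measured, with sums of 0.23 to 0.25, 0.28 to 0.40, 0.59 to 0.68 and 0.61 to 0.69. For B cells 3 of 6 were (MS4A1 never), with sums of 1.14 to 1.27, 1.07 to 1.84, 1.92 to 2.62 and 2.01 to 2.47. For mast cells 1 of 5 was (KIT never), with sums from 0.0922, at day 0, to 0.182, with ATRA. For skeletal muscle cells 5 of 9 were (MYF5 never), with sums of 74.4 to 78.9, 45.0 to 49.4, 20.1 to 20.4 and 21.6 to 23.3. Of 6 tested muscle genes, 1 was higher after culture (MYH3, at least 6.31-fold) and 2 lower (DES, -0.74, and ACTA1, -0.59). With ATRA MYH3 rose by 0.44, while DES differed by -1.31 and ACTA1 by -2.38. With 9cRA DES (-1.14) and ACTA1 (-2.40) were lower and none was higher. Sums of several lists moved with culture or retinoid, and their part in the cytokine results was not tested. In RNA from whole cultures, fewer cells of a type and less RNA per cell cannot be told apart.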

How the data were processed

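Total RNA (100 ng) was labelled with Cy3 and hybridised to 12 bovine arrays of 60-base probes, 3 for each of 4 groups. The deposited spot intensities had their background subtracted in Feature Extraction (version 10.7.3.1 per the file headers) and were not normalized between arrays. The authors also deposited a log2 table with 1 value per group, used as an alternative. Control spots were left out, as were 191 of 525636 probe spots marked as outliers, and no spot was saturated. Signals were taken to log2 minus the array's 75th percentile. Each gene was represented by its brightest probe on average, and tested if some group had that probe well above background on every array (17621 genes). limma 3.58.1 (lmFit, eBayes, two-sided, R 4.3.3) fitted the 4 group means to the 12 arrays, with Benjamini-Hochberg adjustment over all genes for each comparison. Further probes of a gene were read from a like fit with a row for each probe that passed the same filter, adjusted over those probes. In a group where no array was well above background, "at least" folds set the brighter mean against the dim arrays at their detection floor (the lowest signal well above background), or at the probe's own signal if that was higher. Names follow RefSeq (28562 probes by accession, 5113 by current and 138 by older symbol), with file names kept for 9840 probes.

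The members and lists were chosen with earlier results of these data known. Values on each array are given for genes whose group means span at least 2, and from each list the 3 called genes with the smallest adjusted p are eligible, with 12 genes always considered. The number of arrays limits the precision. On simulated data for day 6 control against day 0, 85.1% of 67 genes changed 2-fold among 17590 genes were called. Alternatives were other background corrections, scalings, filters, probes, slide as a block, single slides and leaving out each array.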

Additional observations from a re-analysis of the deposited data

How the results depend on the processing

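No paired analysis was possible because the labels give each group as a single sample and number no replicates. Under other background corrections, scalings, filters, probe rules, slide blocks and 2-group fits, the count of members called, both directions together, stayed within 1.5 times, although with slide as a block the count higher with 9cRA went from 18 to 10. At 2-fold or more, 22 members were called for day 6 control against day 0, 15 for ATRA and 13 for 9cRA against control. For ATRA against 9cRA it was 0 under each alternative that could be fitted. Direction reversed in 7 cases among the 18 genes with the widest range. Among the other 44 described genes it reversed in 11, 5 with slide as a block (CCL8 with each retinoid, and CXCL10, CXCL17 and IL10 with 9cRA) and 6 with another probe (CXCL16, IL17RC, IL1B, IL1RL1, IL21R and IL2RA). CCR1 with ATRA was 0.39 within slide 2. IL36A over culture ran from -0.13 to 0.13 when arrays were left out in turn, the highest without day 6 control array 1. With a second probe, the difference was -0.39 (CXCL12) and -0.28 (IL1RAP) over culture, 0.24 (IL1RAP) with ATRA, and 0.26 and 0.27 (IL1RN) with ATRA and 9cRA. With normexp the differences of genes of low signal shrank, for CX3CL1 over culture from 9.21 to 5.10. The cause was not tested. Members near the detection limit have wide intervals.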
